A study of Livoneca redmanii with 3 samples.

Results

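In libraries made from the isopod Livoneca redmanii, actin was represented by 32 assembled contigs. The authors' annotation names them ACTB (30 contigs) or ACTG1 (2 contigs), out of 31922 distinct contigs in the deposited count table. They were chosen by that name alone, and they belong to 13 of 26084 assembled genes, an assembled gene being all contigs that share a name up to its gene number. Livoneca redmanii is a cymothoid isopod, a crustacean parasite of fish, and the specimens came from the fish Tilapia zilli at Lake Qarun in Egypt. RNA from whole specimens was sequenced in 3 libraries, 1 for each condition, so that no difference below has a replicate check. The control library came from specimens held at 35 PSU (practical salinity units) and 26 °C. The low-salinity library came from specimens whose salinity was lowered gradually from 35 to 8 PSU, with no temperature given in the labels. The low-temperature library came from specimens taken from 26 °C to 10 °C, with no salinity given. The labels do not say how many specimens went into a library or their age, sex or stage.

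Actin is the protein of the thin filaments that myosin pulls on in muscle, and of the filaments that give every animal cell its shape, its cortex and its tracks for transport. Filaments grow by adding ATP-bound monomers at one end and lose monomers at the other, under the control of proteins that nucleate, cap, sever and crosslink them. Animals carry several nearly identical actin genes, some used mainly in muscle and some in all cells. ACTB and ACTG1 are the vertebrate names of the actins found in all cells. Here those names were transferred to the contigs from their best matches in other species, so muscle and non-muscle actin of the isopod cannot be told apart by name. All 32 contigs carried the same KEGG orthology group, K05692, and their best matches were 10 different proteins.

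The 3 libraries held very different RNA, which touches every comparison below. They summed to between 1434390 and 2782324 counts. Contigs whose annotation mentions a mobile genetic element took 46.0% of counts in control, 53.8% under low salinity and 4.58% under low temperature, and contigs with no annotation took 40.7%, 34.6% and 79.0%. None of the actin contigs carried mobile-element text. Because these are whole specimens, a different number of cells of an actin-rich type and a different amount of actin RNA per cell cannot be told apart. Leaving the mobile-element contigs out of the library sizes and scaling changed the log2 ratio of the actin sum described next, low temperature over control, from 6.61 to 6.56, and that of low salinity over control from -0.09 to -0.72. The part of the unannotated contigs was not tested.

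Summed over the 32 contigs, actin had 488 counts in control (exact Poisson 95% interval 446 to 533), 227 in low salinity (198 to 259) and 16037 in low temperature (15790 to 16287). These are 0.0228%, 0.0158% and 0.576% of each library. Low temperature was the high library. CPM is a level relative to library size, and TMM scaling adjusts it for composition by assuming that most contigs do not change. Between low temperature and control, 49.6% of contigs with a mean count of at least 10 were at least 2-fold higher. A further 43% were at least 2-fold lower, so that assumption was not met for this pair. In CPM with TMM scaling, the sums were 131, 123 and 12841. Low temperature was 97.7-fold above control (95% interval 89.3 to 107) and 104-fold above low salinity (91.5 to 119). Low salinity was 0.937 of control (0.797 to 1.1), within counting error under TMM scaling but not with total counts: as shares of all counts the intervals were 0.0208% to 0.0249% in control and 0.0138% to 0.0180% in low salinity, which do not overlap. All folds here use TMM scaling. The log2 ratio of low temperature to control, 6.61, was 4.66 with total counts, 4.14 with the upper quartile and 7.57 with median-of-ratios size factors, and the folds of single genes move in the same way. All intervals here are exact and cover counting error only: they leave out the spread between animals and the error of dividing reads among near-identical contigs.

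The summed value joins patterns that run opposite ways. A single assembled gene, DN765 (TRINITY_DN765_c0_g1), held 483 of the 488 actin counts in control and 224 of the 227 in low salinity, but 56 of the 16037 in low temperature. The other 12 assembled genes together had 5 counts in control, 3 under low salinity and 15981 under low temperature, a ratio of low temperature to control of 9503 (4071 to 29272). Without DN765 the log2 ratio of the actin sum, low temperature over control, moved from 6.61 to 12.996, and that of low salinity over control from -0.09 to 0.24.

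Of the 32 contigs, 22 (68.8%) had counts in the low-temperature library and none in the others, a pattern shown by 40.8% of all contigs. Comparisons of size were limited to contigs with a mean count of at least 10, which kept 26 of the 32 (left out were DN31_c0_g1_i16, DN375_c0_g1_i1, DN453_c0_g1_i1, DN765_c0_g1_i16 and the single contigs of DN429_c0_g1 and DN39629_c0_g1). Of these, 17 had counts in low temperature alone and so passed through that library only, and the counts that follow describe the contigs rather than support a direction. At least 2-fold higher in low temperature than in control were 20 of the 26, beside 49.6% of all 8563 contigs compared, and at least 2-fold lower were 6, beside 43% of all (5 with median-of-ratios scaling). The median log2 ratio was 8.64 over the actin contigs and 0.83 over all contigs. With a library at 0 set to 3 counts, where the other library had reads, the medians were 6.77 and 0.84. In low salinity against control, 0 of 26 were higher, beside 5.62% of all contigs, and 5 were lower, beside 13.3%. Of those 5, DN31_c0_g1_i4 and DN31_c0_g2_i1 rest on 1 count in control against 0, while the other 3 belong to DN765. In low salinity against low temperature, 4 were higher, beside 41.8% of all contigs, and 21 were lower, beside 49.9%. The 3 comparisons share libraries and are not independent of each other. With total-count scaling the low-salinity comparison over all contigs had 335 higher and 1742 lower, and with upper-quartile scaling 717 and 991, against 481 and 1139 with TMM.

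**Figure D1:**
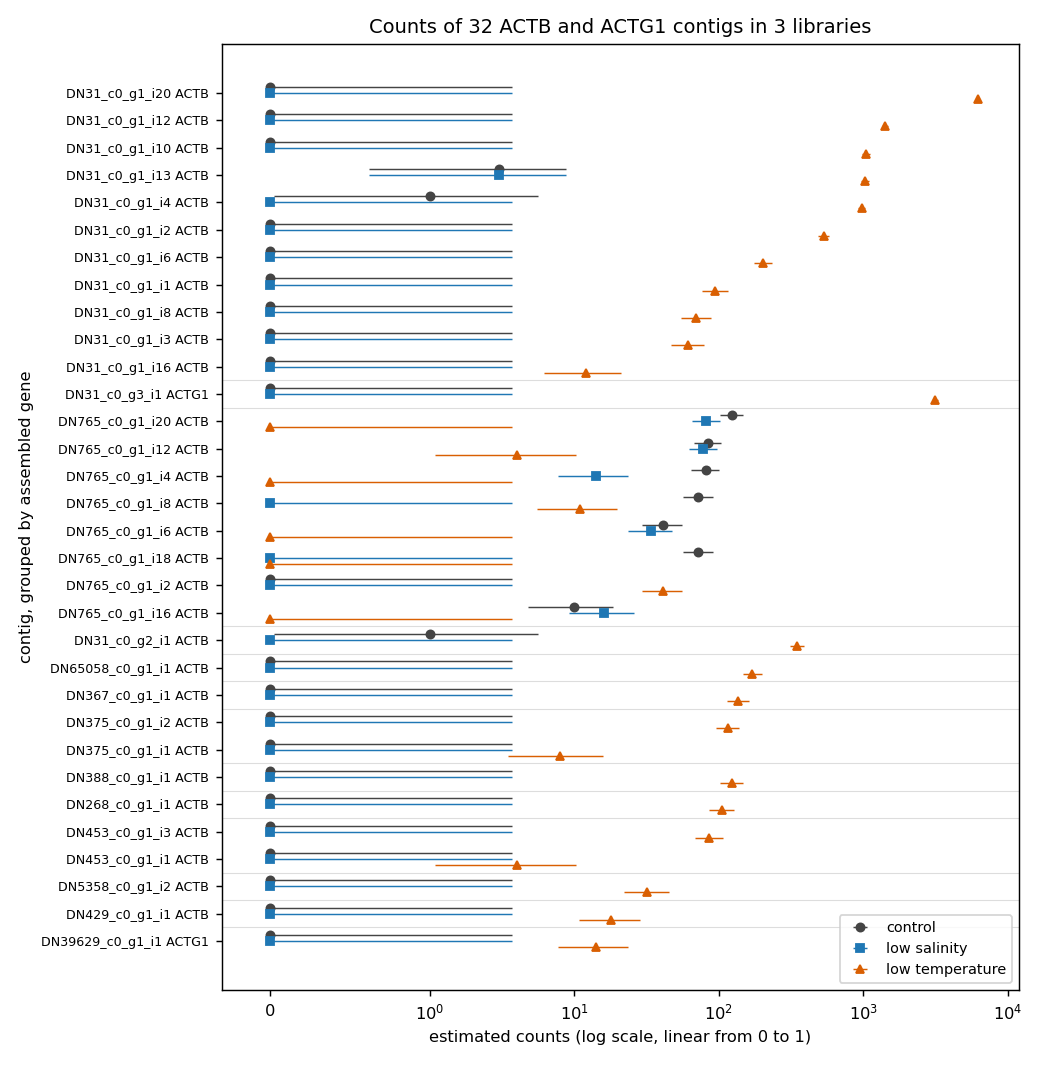
Estimated counts of the 32 ACTB and ACTG1 contigs (horizontal axis, logarithmic above 1 and linear from 0 to 1) in the control (circles), low-salinity (squares) and low-temperature (triangles) libraries, with exact Poisson 95% intervals, grouped by assembled gene. The DN765 contigs are those with most of their counts in control and low salinity, while 22 of the 32 contigs had counts in low temperature alone.

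The assembled gene with the most actin counts was DN31_c0_g1 (TRINITY_DN31_c0_g1), with 11 ACTB contigs among its 14. Its actin contigs summed to 4 counts in control, 3 under low salinity and 11658 under low temperature, or 0.419% of that library. Low temperature was 8666-fold above control (3384 to 31810) and 5738-fold above low salinity (1963 to 27830). It was thus nearly absent from the counts of the libraries in which DN765 was the main actin.

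Within DN31_c0_g1 a single contig, i20, took 53.4% of the low-temperature counts (52.5% to 54.3%). It had 0 counts in control, 0 under low salinity and 6229 under low temperature (6075 to 6386). Against a floor of 3 counts for a library at 0, that is at least 6174-fold higher in low temperature than in control. Contig i12 had 0, 0 and 1413 counts (at least 1400-fold higher), i10 had 0, 0 and 1045 (at least 1036-fold), and i2 had 0, 0 and 534 (at least 529-fold). These 4 contigs show the same pattern, with every count in the low-temperature library. Contig i13 was the one with counts everywhere, at 3 in control, 3 under low salinity and 1024 under low temperature, a ratio to control of 1015 (346 to 4929). Contig i4 had 1, 0 and 973 counts, a ratio of 2893 (518 to 114385) that rests on the 1 control read. The remaining 5 contigs were at 0 in both other libraries and had 203 (i6), 94 (i1), 70 (i8), 61 (i3) and 12 (i16) counts in low temperature. Contigs i12, i4 and i6 also carry a second listing under the name NUP133, a nuclear pore protein in vertebrates; what that name shares in their counts was not tested. Contigs of this gene outside the 2 names added 0, 1 and 1031 counts, among them i5, named ACTA2 after the vertebrate smooth-muscle actin, with 0, 1 and 273.

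A pair of assembled genes shares the DN31 component of the assembly with it. DN31_c0_g3, a single contig named ACTG1, had 0 counts in control, 0 under low salinity and 3163 under low temperature (3054 to 3275), at least 3135-fold above control. That bound holds under TMM scaling, and it was 812 with total counts, 568 with the upper quartile and 6090 with median-of-ratios. DN31_c0_g2, a single contig named ACTB, had 1, 0 and 348 counts, a ratio of low temperature to control of 1035 (184 to 40985). The 13 contigs of the 3 DN31 genes held 94.6% of all actin counts in low temperature, against 1.02% in control and 1.32% in low salinity. Contigs of one component resemble each other in sequence, and the way reads were divided among them is an estimate.

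The other 9 assembled genes outside DN765 had no count in control or low salinity and 812 counts together in low temperature, 5.06% of the actin sum there. DN65058_c0_g1 had 171 counts (at least 169-fold above control), DN367_c0_g1 136 (at least 135-fold), and DN388_c0_g1 and DN375_c0_g1 123 each (at least 122-fold). DN268_c0_g1 had 105, DN453_c0_g1 90 and DN5358_c0_g1 32 counts. The reads of DN375_c0_g1 fell to i2 (115) and i1 (8), and those of DN453_c0_g1 to i3 (86) and i1 (4). DN429_c0_g1 with 18 and DN39629_c0_g1, the second ACTG1 contig, with 14 were below the mean count needed for comparison. All 9 thus followed the DN31 genes at a far smaller number of reads. Contig lengths were not used here, so the order of counts is not an order of expression levels between genes.

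DN765 ran the other way. All 8 of its contigs are named ACTB and all have the same best match. The gene had 483 counts in control (441 to 528), 224 in low salinity (196 to 255) and 56 in low temperature (42.3 to 72.7), or 130, 121 and 44.8 CPM. Low salinity was 0.934 of control (0.793 to 1.1), within counting error under TMM scaling, but its log2 ratio moved from -0.10 to -0.53 with total counts and to 0.11 with the upper quartile. Control was 2.90-fold above low temperature (2.20 to 3.90), a log2 ratio of low temperature to control of -1.53, and low salinity was 2.71-fold above low temperature (2.01 to 3.70). For low temperature against control the direction was the same under all 4 scalings, while the size was not. The log2 ratio of low temperature to control was -3.47 with total counts, -3.98 with the upper quartile and -0.58 with median-of-ratios size factors, the last short of a 2-fold difference. Median-of-ratios scaling shifted the median of all contigs by 0.83 on the same scale, total counts by -1.25 and the upper quartile by -1.62. The prior count damps these shifts for contigs at or near 0 in a library. That DN765 moved further is therefore not particular to this gene.

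Few named genes lay on the same side as DN765. Of the 13 actin genes, 11 had a mean count of at least 10. Of these, 10 were higher in low temperature by 2-fold or more, beside 53.3% of 5503 assembled genes compared, and 1 was lower, beside 39.5%. The 10 had at most 4 counts in control and 3 in low salinity, and so passed the filter through low temperature. Their number describes the genes rather than supports a direction. Among assembled genes that have a name and no mobile-element text, which is the class actin belongs to, 98.9% of 1602 were higher and 0.999%, or 16 genes, were lower. DN765 was 1 of those 16 with TMM scaling, and was short of 2-fold with median-of-ratios scaling.

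**Figure D2:**
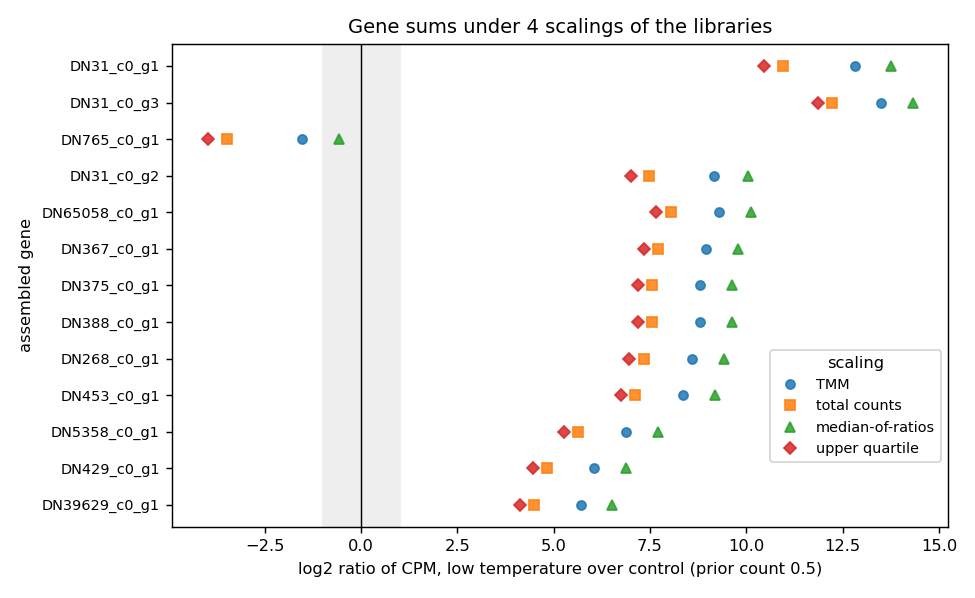
Log2 ratio of CPM in low temperature over control (horizontal axis, prior count 0.5) for each of the 13 assembled actin genes under 4 scalings, with the range of less than 2-fold shaded. DN765 lies below 0 under every scaling, from -3.98 to -0.58, and the other 12 lie above 0; for genes at 0 in control the position depends on the prior count.

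The contigs of DN765 differed between libraries in their make-up as well as in their sum. In control, i20 had 123 counts, i12 84, i4 81, i18 72, i8 72, i6 41, i16 10 and i2 none. In low salinity, i20 had 82, i12 78, i6 34, i16 16 and i4 14, and i18, i8 and i2 had none. In low temperature, i2 had 41, i8 11 and i12 4, and the other 5 had none. Control and low salinity therefore share their 2 leading contigs, and low temperature has a different leading contig, to which no read was assigned in the others.

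The contigs i18 and i8 each made up 14.9% of the gene in control (11.9% to 18.4%) and none of it in low salinity, where the floor of 3 counts is 1.34% of the gene and the exact upper limit 1.63%. Control was at least 11.9-fold above low salinity for each of them. Contig i4 also took a smaller share in low salinity, 6.25% (3.46% to 10.3%) against 16.8% (13.5% to 20.4%), and its CPM was 0.348 of control (0.182 to 0.618). Contig i12 took a larger share, 34.8% (28.6% to 41.5%) against 17.4% (14.1% to 21.1%), with a CPM 1.87-fold that of control (1.36 to 2.58). Contig i6 was at 1.67 of control (1.03 to 2.70) and i16 at 3.22 (1.37 to 7.94), while i20 was at 25.5% of the gene in control and 36.6% in low salinity. The shares do not depend on how the libraries were scaled, while the CPM ratios use TMM. Intervals of the share did not overlap between control and low salinity for i20, i12 and i16, which took more of the gene in low salinity, or for i18, i8 and i4, which took less, and they overlapped for i6.

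In low temperature, i2 made up 73.2% of the gene (59.7% to 84.2%), on 41 reads, and it was at least 40.6-fold above control. The exact upper limit for its share, at 0 counts, was 0.761% of the gene in control and 1.63% in low salinity. Contig i20, the leader in control, was at least 13.8-fold higher there than in low temperature, where 0 of 56 reads leaves an exact upper limit of 6.38% for its share. Contig i18 was at least 8.07-fold higher in control than in low temperature, i12 was 7.06-fold higher (2.66 to 26.5) and i8 2.20-fold (1.16 to 4.61). The files give estimated reads per contig with no error for their division, so these shares are less certain than the gene's sum.

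**Figure D3:**
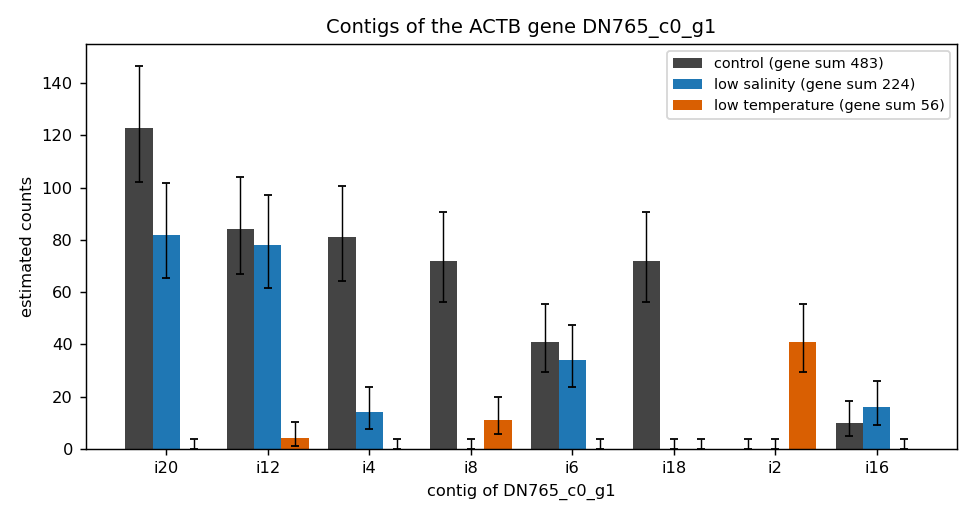
Estimated counts (vertical axis, from 0) of the 8 contigs of the ACTB gene DN765 in the control, low-salinity and low-temperature libraries, with exact Poisson 95% intervals. Contigs i18 and i8 have 72 counts each in control and 0 in low salinity, and i2 has 41 in low temperature and 0 in both others.

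Best matches sorted the contigs by pattern only in part. Contigs that share the best match of DN765 held 483 of the 488 actin counts in control and 224 of the 227 in low salinity. That protein is the best match of all 8 DN765 contigs. It is also that of DN453_c0_g1_i3 and DN5358_c0_g1_i2, which had 86 and 32 counts in low temperature and none in the others. A second protein was the best match of 10 contigs with 1, 0 and 9725 counts, and another that of 5 contigs with 3, 3 and 1375. The identifiers of the matches begin with taxon numbers: 7460 for the DN765 match, 61622 for the second protein and 303518 for the third. The files do not pair these with species names, and none is given here. Whether each contig comes from the isopod itself was not tested.

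Actin contigs outside the name rule followed the DN31 pattern. There were 11 of them by description, name or orthology, with 1 count in control, 2 under low salinity and 1037 under low temperature. A pair of them is spelled Actg1, in another letter case than the rule, DN13173_c0_g1_i1 with 98 counts and DN375_c0_g1_i3 with 27, in low temperature alone. The others include the names ACTA2 and ACTG2, smooth-muscle actins of vertebrates, at 102 counts (DN488_c0_g1_i1) and 17 (DN40_c1_g1_i1) in low temperature, and ACT1 at 132 (DN535_c0_g1_i1), each at 0 in control and low salinity. Taking all 42 contigs of the orthology group K05692 gave 488, 229 and 16989 counts, so DN765 held nearly all actin reads of control and low salinity under that definition too.

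The authors' deposited tables show some of these genes through a single contig. The authors' deposited table of normalized values holds 1 contig for each assembled gene, and in it DN31_c0_g1 is represented by i1, which carries 0.741% of that gene's low-temperature counts over all its contigs. In the authors' deposited table DN765 is represented by i12, with normalized values of 36.2 in control, 66.3 under low salinity and 9.95 under low temperature. For DN765 the authors' deposited table of low salinity against control gives a log2 fold change of 0.86, where the sum over its 8 contigs gave -0.10. For low temperature against control the authors' deposited table gives -1.82 for DN765, the same direction as the sum. The contig of DN31_c0_g2 is listed more than once in the count table, and its value in the authors' deposited table is doubled, at 1732 in low temperature.

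Proteins that act on actin were followed through a list of names ordered by role, which found 91 contigs under 34 names. Together they had 7 counts in control, 4 under low salinity and 7753 under low temperature, and 85 of the 91 had counts in low temperature alone. With a mean count of at least 10, 57 were compared. All 57 were higher in low temperature than in control by 2-fold or more, beside 49.6% of all contigs and 98.9% of named genes without mobile-element text, and 52 of them passed the filter through low temperature only. Their median log2 ratio was 8.06, or 6.38 with a library at 0 set to 3 counts. In each role below, every contig compared was likewise higher. Those counts lie near the 98.9% of named genes and are not particular to any role. No regulator showed the DN765 pattern, which was rare: 0.999% of named genes without mobile-element text were at least 2-fold lower. The highest control count of any regulator was 3 and the highest low-salinity count 2.

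Actin-related proteins had 286 counts over 6 contigs in low temperature and 0 elsewhere. The leading contigs are subunits of the Arp2/3 complex, which starts branches on existing filaments: ARPC1A with 187, ACTR3 with 35 and ACTR2 with 28, with 14 more in a second ACTR2 contig. The others, ACTR5 with 14 and ACTR1A with 8, are not part of that complex: in vertebrates ACTR5 belongs to a chromatin remodeller and ACTR1A to dynactin. Both contigs compared, ARPC1A and ACTR3, were higher in low temperature. Proteins of monomer binding and filament turnover had 0, 1 and 546 counts over 6 contigs. Among them, WDR1, which aids filament disassembly, had 161 in low temperature, the cyclase-associated protein CAP1 had 146, with 1 in low salinity, and the depolymerising factor DSTN had 144. All 5 compared contigs of this role were higher in low temperature.

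Capping proteins, which block filament ends, were thinly covered: TMOD1, a cap of the slow-growing end, had 30 counts and CAPZB, a cap of the fast-growing end, had 8, in low temperature only. Names tied to nucleation and its control had 304 counts over 13 contigs, all in low temperature, led by 3 contigs of RHOA, a small GTPase that activates formins, at 59, 53 and 51, and all 4 contigs compared were higher. The chaperonin and its helper proteins that fold new actin and tubulin had the most contigs of any role, 37, with 0, 2 and 3586 counts. All 28 compared were higher, beside 98.9% of named genes without mobile-element text, and 27 of them had counts in low temperature alone. The leading contigs of this role were the subunits cct7 with 582, CCT8 with 473 and CCT3 with 317, each at 0 in control and low salinity.

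Crosslinkers and linkers, which bind filaments into networks or tie them to membranes, had 7, 1 and 2993 counts over 27 contigs, of which 17 of 17 compared were higher. A pair of the 3 leading contigs, with 3, 0 and 454 counts and with 0, 0 and 396, are named fln. In the fly that name is flightin, a protein that binds myosin in flight muscle and not a crosslinker of actin, and it entered the list because filamin has used the same letters. The other is cher, the fly's filamin, with 0, 0 and 281. Without the 3 fln contigs the role had 4, 1 and 1917 counts, and 54 of 54 compared contigs of the whole list were higher in low temperature.

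**Figure D4:**
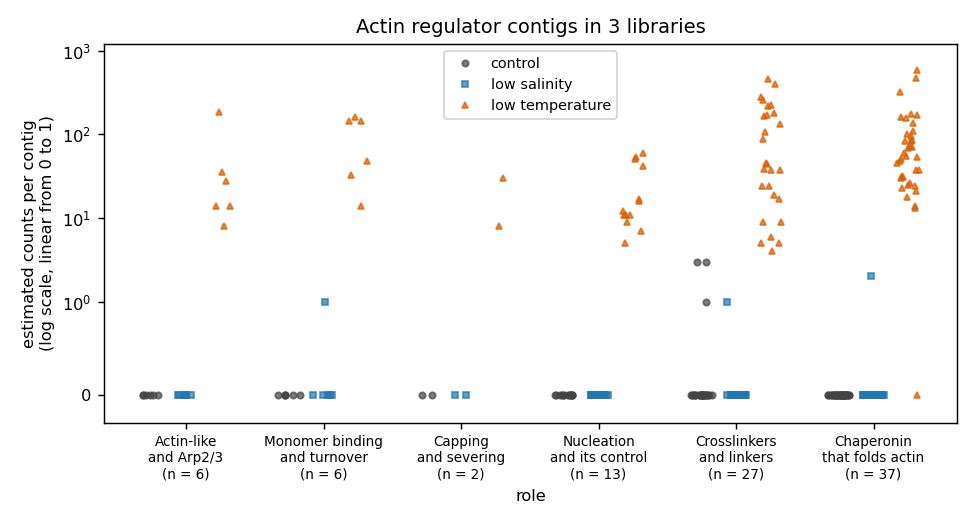
Estimated counts of 91 contigs of actin regulators (vertical axis, logarithmic above 1 and linear from 0 to 1) by role in the control, low-salinity and low-temperature libraries, 1 point for each contig and library; points are spread sideways for legibility. Control counts reach 3 and low-salinity counts 2, while low-temperature counts reach 582.

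The assembled genes whose spread over the libraries was nearest to that of the actin sum were sought among 63 named genes with at least 1000 counts. Of the actin sum in CPM, 1.00% was in control, 0.940% under low salinity and 98.1% under low temperature. The 5 nearest, by the largest difference in any of these shares, were a trypsin-like protease named zetaTry (11, 6 and 2171 counts, 1.59 percentage points), an aspartic protease named cathD (4, 2 and 1049, 1.69 points) and the beta-tubulin TUBB4B (1, 2 and 1051, 1.78 points). They were followed by the serine proteases TMPRSS11D (5, 0 and 1152, 1.80 points) and TMPRSS6 (6, 1 and 2569, 1.84 points). None had as large a share in control or low salinity as actin had, which DN765 supplies. With 98.1% of the actin sum in low temperature, a gene with counts in that library alone would differ by little more than these 5. This likeness is a description over 3 libraries and does not mark these genes as particularly like actin.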

How the data were processed

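Per the labels' protocols, whole-specimen RNA was extracted with TRIzol and sequenced on the Ion Torrent S5 platform. The submitters' processing notes name Salmon 1.10.2, with fastp 0.23.2 and FastQC 0.11.9. Assembly and annotation were done with tools not given in the sources used here, which name no genome build. The authors deposited estimated counts per contig, which are whole numbers in the file. Its 33093 lines hold 31922 contigs, some of them on several lines, and each contig was used once. The deposited normalized table holds a signal of 1 contig per assembled gene, equal to its counts times its listings times 1 factor per library: dividing by that factor gave whole reads for 100% of values, within 0.01 counts, and with 1 library per condition no count test was run on them. Per the file headers, their comparison tables give the authors' mean score, log2 fold changes, a test statistic score and p-values under the column names of DESeq2. The model is not given, and no p-value from them is printed.

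Ratios were computed with TMM scaling on all contigs, using edgeR 4.0.16 in R 4.3.3, with 0.5 as the prior count. No test was run, each condition having 1 library, and at least 2-fold is a rule of size. A mean count of at least 10 left 8563 contigs. Counts carry exact Poisson intervals, shares and ratios exact binomial (Clopper-Pearson) 95% intervals. Reads amplified by PCR and carrying no molecular identifiers do not each stand for a molecule, so intervals cover counting error only. For a fold against a library at 0, that library was set to a floor of 3 counts. The scripts were checked on simulated data with Python 3.11.15. There the libraries shared 1 profile and only a small set of contigs differed, equally many up and down. That check therefore does not bear on scaling between libraries as unlike as these. The members and lists were chosen with earlier results of these data known. Contigs named singly are the 15 with the highest summed count, every one with a count in control or low salinity, and every assembled gene with a member. For regulators they are the 3 with the highest summed count in each role, and for likeness the 5 nearest genes. The alternatives were other scalings (total counts, the upper quartile and DESeq2 1.42.0 median-of-ratios size factors), another prior count, other filters and other definitions of actin.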

Additional observations from a re-analysis of the deposited data

How the results depend on the processing

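The log2 ratio of the actin sum in low temperature over control, 6.61 with TMM, was 4.66 with total counts, 7.57 with median-of-ratios, 4.14 with the upper quartile, 8.24 in the authors' normalized table, 6.78 with every listing counted and 12.996 without DN765. Low salinity over control, -0.09, was -0.52 with total counts, 0.83 in the authors' normalized table, where i12 stands for DN765, -0.72 when contigs with mobile-element text were left out of the libraries and 0.24 without DN765. Its sign therefore depended on the choice. Low salinity over low temperature, -6.70, was -5.18, -7.69 and -4.03 with those 3 scalings, -7.41 in the authors' normalized table, -7.27 without mobile-element contigs and -12.76 without DN765. A mean count of at least 50 kept 12 actin contigs: 10 higher and 2 lower in low temperature than in control, 2 lower in low salinity than in control, each on 1 control read against 0, and 2 higher and 10 lower in low salinity than in low temperature. For low salinity against control, the upper quartile gave 2 higher, no filter 1 higher and a prior count of 2 gave 3 lower. Of the regulators, 90 were higher with no filter and 18 with a mean of at least 50. Beyond what each choice does by construction, the cause of these moves was not tested. Leaving out DN765 or fln, the orthology group, and the scalings of DN765 were chosen after seeing the data. The alternative by actin protein domain was not run, since no domain column was used here. No paired analysis was possible because each condition has 1 library. The depth of 56 reads limits the make-up of DN765 in low temperature.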

Other observations

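The company DN765 keeps was looked at after its values were seen. With TMM scaling it was 1 of 16 named assembled genes without mobile-element text that were at least 2-fold lower in low temperature than in control. By control count it stood 4th among them. With median-of-ratios scaling its log2 ratio, -0.58, was short of 2-fold. The class was set by annotation text alone, so mobile elements without such text may remain in it. The 3 above DN765 are all annotated as histones, the proteins that package DNA. DN142_c0_g1, an H3-type histone named HIST1H3D and HIST3H3, had 1121 counts in control, 379 under low salinity and 57 under low temperature, a log2 ratio of low temperature to control of -2.72. DN263_c0_g1, named HTB1 and described as histone H2B, had 699, 254 and 26 counts (-3.16). DN227_c0_g1, named H3F3C after a histone H3 variant, had 543, 184 and 31 (-2.55). Next after DN765 came KIF22, a kinesin motor of mitotic chromosomes in vertebrates, with 201, 146 and 8 counts (-3.04), and DDX23, an RNA helicase of the spliceosome, with 177, 70 and 6 (-3.25).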
